A study of Mus musculus with 16 samples.

Results

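The Nkx genes studied here are 10 mouse genes of the NK homeobox family, Nkx2-1, Nkx2-2, Nkx2-3, Nkx2-5, Nkx2-6, Nkx2-9, Nkx3-2, Nkx6-1, Nkx6-2 and Nkx6-3, out of 22208 protein-coding genes compared. They were taken as a named family, and a ChIP-seq peak was assigned to a gene when it overlapped the gene or lay within 5 kb of it in the GENCODE annotation of the mm9 genome (NCBIM37). This rule gave 14 of the 4992 peaks listed for total Jarid2 and 15 of the 4502 peaks listed for Jarid2 dimethylated on its lysine K116 (Jarid2-K116me2). Both lists came from E14, a line of mouse embryonic stem cells (ESC), grown in serum with LIF on gelatin, with 1 sample per antibody and therefore no replicate error. A second experiment measured the histone mark H3K27me3 in 3 lines, namely Jarid2 -/- ESC, Jarid2 -/- ESC rescued with a bacterial artificial chromosome (BAC) carrying Jarid2 (WT rescue), and Jarid2 -/- ESC rescued with a BAC carrying Jarid2 in which this lysine is changed to alanine (K116A rescue). All 3 lines thus lacked the endogenous gene, and the E14 cells of the Jarid2 lists were not among them. Each line was measured as ESC under the conditions given for E14, and as embryoid bodies (EB) formed by the hanging drop method and kept without LIF for 8 days. Each of the 6 groups had 2 replicates, which gave 12 H3K27me3 libraries. An EB is a mixture of cells, so a share of cells carrying the mark and the amount of mark per cell cannot be told apart.

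Jarid2 is a cofactor of Polycomb repressive complex PRC2, the enzyme complex that methylates lysine 27 of histone H3, and PRC2 also methylates Jarid2 itself. H3K27me3 covers the silent genes of developmental regulators in ESC, and the mark is retained or lost at each of them as cells commit to a lineage. The Nkx genes encode homeodomain transcription factors that ESC do not need and that later specify organs. Nkx2-1 acts in thyroid, lung and ventral forebrain, Nkx2-5 in the heart, Nkx2-3 and Nkx3-2 in spleen, gut or axial skeleton, and Nkx2-2, Nkx2-9, Nkx6-1 and Nkx6-2 in the ventral neural tube, with Nkx2-2 and Nkx6-1 also in pancreatic islet cells. Nkx2-6 is known from the pharyngeal region and Nkx6-3 from the stomach and hindbrain.

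The DNA at these genes differed in its content of CpG, the dinucleotide that is dense in many promoters bound by PRC2. The first 3 sequences are the 250 bases before the start site, 5′ to 3′ on the strand of the gene, chosen as the poorest in CpG (Nkx2-5, 8 CpG), the richest (Nkx6-2, 26 CpG) and one in between (Nkx2-1, 9 CpG) among the 5 genes whose RefSeq and GENCODE start sites coincided. Capitals mark CpG. They were taken from the RefSeq table for GRCm38.p6 and matched exactly once near the gene in mm9, at chr17:26978511-26978760, chr7:146768697-146768946 and chr12:57637896-57638145, all on the minus strand.
Nkx2-5: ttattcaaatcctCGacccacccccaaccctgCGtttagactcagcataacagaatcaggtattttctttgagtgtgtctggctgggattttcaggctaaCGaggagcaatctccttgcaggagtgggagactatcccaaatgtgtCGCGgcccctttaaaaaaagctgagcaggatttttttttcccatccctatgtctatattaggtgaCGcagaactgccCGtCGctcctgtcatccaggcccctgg
Nkx6-2: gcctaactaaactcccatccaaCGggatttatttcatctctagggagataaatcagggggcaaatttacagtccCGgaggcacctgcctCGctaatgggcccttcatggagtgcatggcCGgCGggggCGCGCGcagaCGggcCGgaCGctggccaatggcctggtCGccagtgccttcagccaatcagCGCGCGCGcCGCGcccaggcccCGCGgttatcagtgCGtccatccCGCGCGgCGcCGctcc
Nkx2-1: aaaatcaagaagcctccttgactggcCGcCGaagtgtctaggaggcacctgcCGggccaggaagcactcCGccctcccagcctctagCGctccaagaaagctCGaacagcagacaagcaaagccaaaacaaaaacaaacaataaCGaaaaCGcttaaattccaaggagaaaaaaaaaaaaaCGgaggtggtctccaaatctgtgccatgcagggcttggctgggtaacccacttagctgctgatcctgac
The whole RefSeq promoter (250 bases before to 50 after the start) was present in the table for 8 of the 10 genes, not for Nkx2-6 and Nkx6-3. All 8 lay completely inside peaks of both antibodies. Their CpG count ran from 9 (Nkx2-5) to 40 (Nkx6-1), with a median of 16 against 7 over all 32851 promoters of the table. Their median ratio of observed to expected CpG was 0.666 against 0.384. TAAGTG, a sequence bound by Nkx2-5 and its relatives, was searched on both strands and occurred in 1 of the 8 promoters (Nkx2-1, where it lies in the stretch shown, on the other strand) and in 9.20% of all promoters.

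The next 4 sequences are the 200 bases at the middle of a Jarid2 peak, on the plus strand of mm9, again with CpG in capitals. They show the middle of the longest peak of the family (Nkx2-3, chr19:43682695-43682894, between genes), both peaks of Nkx2-6 (chr14:69789407-69789606, in an intron of 1700092C10Rik, and chr14:69792264-69792463, in an intron of Nkx2-6) and the stronger peak of Nkx6-3 (chr8:24267873-24268072, in an intron of that gene).
Nkx2-3 peak: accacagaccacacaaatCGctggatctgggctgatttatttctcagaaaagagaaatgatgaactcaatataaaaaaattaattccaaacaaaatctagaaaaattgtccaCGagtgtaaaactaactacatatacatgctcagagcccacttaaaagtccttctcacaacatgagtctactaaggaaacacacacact
Nkx2-6 peak at the start site: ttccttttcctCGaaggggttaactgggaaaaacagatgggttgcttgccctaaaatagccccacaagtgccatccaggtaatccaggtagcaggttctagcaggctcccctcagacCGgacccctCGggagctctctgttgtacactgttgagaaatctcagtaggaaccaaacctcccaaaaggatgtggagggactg
Nkx2-6 peak in the gene: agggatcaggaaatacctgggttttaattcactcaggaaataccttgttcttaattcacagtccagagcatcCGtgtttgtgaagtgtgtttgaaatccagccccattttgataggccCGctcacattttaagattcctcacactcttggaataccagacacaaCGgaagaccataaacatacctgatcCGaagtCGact
Nkx6-3 peak in the gene: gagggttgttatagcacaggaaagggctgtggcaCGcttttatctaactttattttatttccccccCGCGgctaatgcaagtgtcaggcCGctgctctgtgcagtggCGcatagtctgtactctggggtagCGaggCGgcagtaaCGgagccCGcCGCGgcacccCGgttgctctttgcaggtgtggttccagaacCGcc
The 4 stretches held 2, 3, 5 and 13 CpG, so the one at the middle of the longest peak of the family was the poorest and the one in Nkx6-3 the richest.

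Every Nkx gene of the family had a peak of both antibodies, 10 of 10, against 15.8% of all protein-coding genes. Taken singly, 18.1% of all genes had a Jarid2 peak and 16.0% a Jarid2-K116me2 peak. The peak score is −10 times log10 of the p-value that the MACS peak caller gave, and it piles up at 3100, so that peaks at this ceiling cannot be ranked. For Jarid2, 8 of the 10 genes reached 3100, against 3.60% of all genes, and for Jarid2-K116me2 9 reached it, against 4.24%. Both antibodies were at the ceiling at 8 genes (3.44% of all genes). The exceptions were Nkx2-6, with 2830.78 for Jarid2 and 3100 for Jarid2-K116me2, and Nkx6-3, with 1140.09 and 1330.23. With 1 sample per antibody no test of these differences was possible.

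Among the 14 Jarid2 peaks of the family, 12 shared at least 1 bp with a peak of the methylated form, and all 15 peaks of the methylated form shared bases with total Jarid2. The start site lay inside a Jarid2 peak at 9 genes and inside a Jarid2-K116me2 peak at 8. The peaks therefore covered start site and gene body together in most of the family, as shown in the map of both antibodies. The peak of Nkx2-1 (chr12:57626475-57642441) covered 100% of the gene and reached 4546 bp upstream of its start site and 11420 bp downstream. The peak of Nkx2-5 (chr17:26973905-26983393) covered 100% of the gene and extended 4883 bp upstream and 4605 bp downstream. That of Nkx2-3 (chr19:43672197-43693392) extended furthest upstream of the family, with 14618 bp upstream and 6577 bp downstream, so that most of it lay outside the gene. Single Jarid2 peaks also lay over Nkx2-9 (chr12:57711404-57717295), Nkx6-1 (chr5:102084865-102098440) and Nkx6-2 (chr7:146765636-146771755). The peak of Nkx6-2 lay within 5 kb of Inpp5a too, so it was assigned to both genes. Nkx2-2, whose locus also holds the noncoding gene Nkx2-2as, had 2 adjoining Jarid2 peaks (chr2:147004577-147018107 and chr2:147018130-147021852), and so had Nkx3-2 (chr5:42143751-42151077 and chr5:42151142-42159869).

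The Nkx peaks were long. The bases inside Jarid2 peaks within 5 kb of the gene had a median of 11532.5 bp over the 10 genes, against 2377 bp (quartiles 1468 and 3925) over the 4025 genes with a Jarid2 peak. All 10 exceeded that median and 9 the upper quartile. The longest total was at Nkx2-3 (21196 bp), followed by Nkx2-2 (17254 bp), Nkx3-2 (16055 bp), Nkx2-1 (15967 bp) and Nkx6-1 (13576 bp). The other 5 genes were shorter, with 9489 bp at Nkx2-5, 6120 bp at Nkx6-2, 5892 bp at Nkx2-9, 5519 bp at Nkx2-6 and 3062 bp at Nkx6-3. Thus the family fell between 3062 and 21196 bp, and gene length alone did not give the order, since Nkx2-3 spans 3567 bp and Nkx6-3 5678 bp.

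Jarid2-K116me2 peaks were shorter than the Jarid2 peaks at each of the 10 genes, with a median of 9125 bp against 2077 bp over the 3555 genes with such a peak. The ratio of the lengths, Jarid2-K116me2 to Jarid2, had a median of 0.813 in the family, close to the 0.804 (quartiles 0.692 and 0.897) over the 3512 genes with both antibodies. It was highest at Nkx2-2 (0.976) and lowest at Nkx2-6 (0.428). At Nkx2-3 (0.606) the Jarid2-K116me2 peak stopped 7344 bp upstream of the start site, whereas Jarid2 continued to 14618 bp. A single Jarid2 peak corresponded to 2 Jarid2-K116me2 peaks at Nkx2-1 and at Nkx2-5. In both cases the additional peak lay upstream of the start site and was the weaker one, with 227.75 at Nkx2-1 and 1057.82 at Nkx2-5. At Nkx2-2 the last 1389 bp of the Jarid2-K116me2 region, near the end of the gene, formed a separate peak with 242.4. At Nkx3-2 the downstream Jarid2 peak of 7327 bp (1955.56) held a Jarid2-K116me2 peak of only 2384 bp (868.45).

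**Figure D1:**
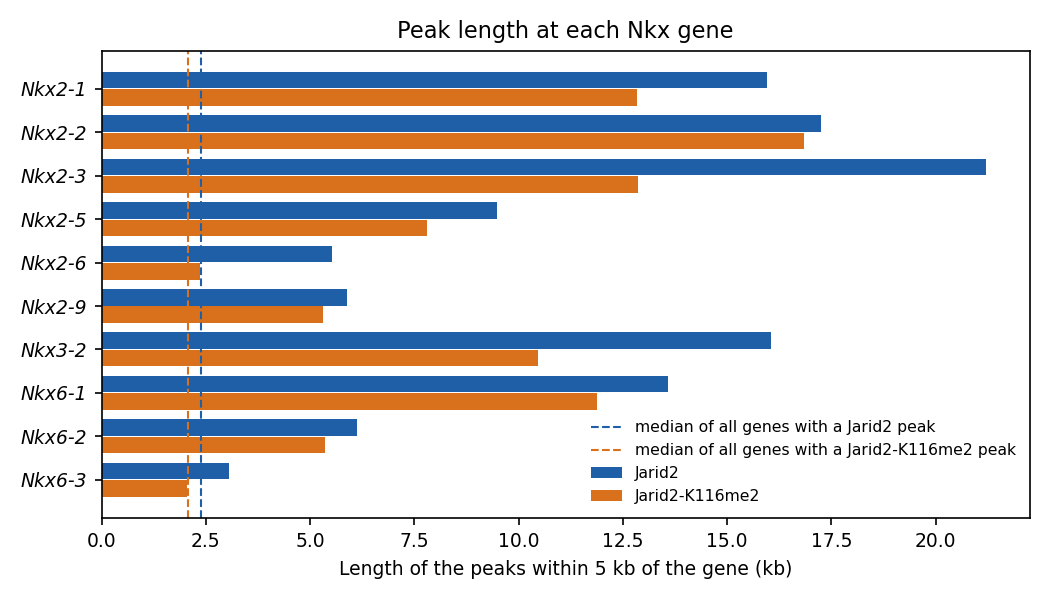
Length of the peaks within 5 kb of each Nkx gene, in kb, for Jarid2 (blue bars) and Jarid2-K116me2 (orange bars), with dashed lines at the medians of all genes with a peak. The Jarid2 bars run from 3062 bp at Nkx6-3 to 21196 bp at Nkx2-3, and each orange bar is shorter than its blue partner.

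Nkx2-6 and Nkx6-3 differed from the rest in where the peaks lay. At Nkx2-6 a weak Jarid2 peak (chr14:69788551-69790463, 227.11) covered the start site and had no Jarid2-K116me2 peak over it. The strong Jarid2 peak began 928 bp downstream (chr14:69790561-69794166), and the Jarid2-K116me2 peak 2049 bp downstream (chr14:69791682-69794045). At Nkx6-3 neither antibody had a peak over the start site. Its main peaks lay from 3091 bp (Jarid2) and 3330 bp (Jarid2-K116me2) to about the end of the gene. A further Jarid2 peak (chr8:24260132-24260915, 69.49), upstream of Nkx6-3, lay in a UTR of Ank1 and had no Jarid2-K116me2 counterpart. These are the 2 Jarid2 peaks of the family that were not shared. The score of 69.49 was near the lowest of the Jarid2 list (62.07) and under the lowest of the Jarid2-K116me2 list (91.86), unlike 227.11. For peaks listed with only 1 of the antibodies, the study holds uneven depth and background estimates to be the most likely reason.

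The Nkx peaks were not dense in CpG. The ratio of observed to expected CpG had a median of 0.479 over the 14 Jarid2 peaks of the family, against 0.574 over all Jarid2 peaks and 0.567 over the 753 at 3100 or more. The 14 peaks were also longer, with a median of 6723.5 bp against 5203 bp for those 753. Within the family the ratio ran from 0.329 in the downstream peak of Nkx3-2 to 0.744 in the weak peak near Nkx6-3, and it was 0.728 at Nkx6-2.

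To see whether the genes carried the mark of PRC2, H3K27me3 was examined in the 12 libraries. The files give broad peaks with a score and no read numbers, and the reads that the study lists for each library did not enter the levels or tests. A score can rise with depth as well as with enrichment. The level of a gene was its highest broad peak score within 5 kb, with 0 for no peak, and its coverage was the percent of the 10 kb around the start site inside broad peaks. The libraries were unequal. They held 1478 to 14125 broad peaks, with the fewest in WT rescue ESC replicate 1, and 3.85% to 34.5% of protein-coding genes had one. Among checks of cell type, the ESC genes Pou5f1 and Nanog and the ubiquitous genes Actb and Gapdh had no Jarid2 or Jarid2-K116me2 peak, and H3K27me3 near 1 of these 4 genes, Pou5f1, in 1 library.

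In ESC the mark was present at all 10 Nkx genes in both WT rescue replicate 2 and Jarid2 -/- replicate 2, and at 9 in K116A rescue replicate 2. The first replicates had fewer, with 5 in the WT rescue, 8 in Jarid2 -/- and 8 in the K116A rescue. Over the 12 libraries, 9 of the 10 genes had a broad peak in at least 8 libraries (16.1% of all genes) and 5 had one in every library (3.46% of all genes). These 5 were Nkx2-1, Nkx2-2, Nkx2-3, Nkx3-2 and Nkx6-1, the same 5 genes with more than 10 kb of Jarid2 peaks in E14. The fewest libraries were found for Nkx2-6 (7) and Nkx6-3 (8), the genes without Jarid2-K116me2 over the start site.

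Coverage in ESC was complete or nearly so for 4 genes. The median over the 6 ESC libraries was 100% at Nkx2-1, Nkx2-3 and Nkx6-1 and 97.5% at Nkx2-2. It was 77.4% at Nkx2-5, 75.1% at Nkx2-9 and 70.1% at Nkx3-2. The remaining genes were covered in part, with 28.3% at Nkx2-6, 18.1% at Nkx6-2 and 0% at Nkx6-3. By their median length in ESC, the broad peaks exceeded the Jarid2 peaks at Nkx2-1, Nkx2-2, Nkx2-3, Nkx2-5, Nkx2-9 and Nkx6-1, and not at the other genes. They summed to a median of 25495 bp at Nkx2-3, against 21196 bp of Jarid2 peaks, and to 14863.5 bp at Nkx2-5, against 9489 bp. In WT rescue ESC they covered 100% of the Jarid2 peak of Nkx2-3 in replicate 2 and 40.2% in replicate 1.

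**Figure D2:**
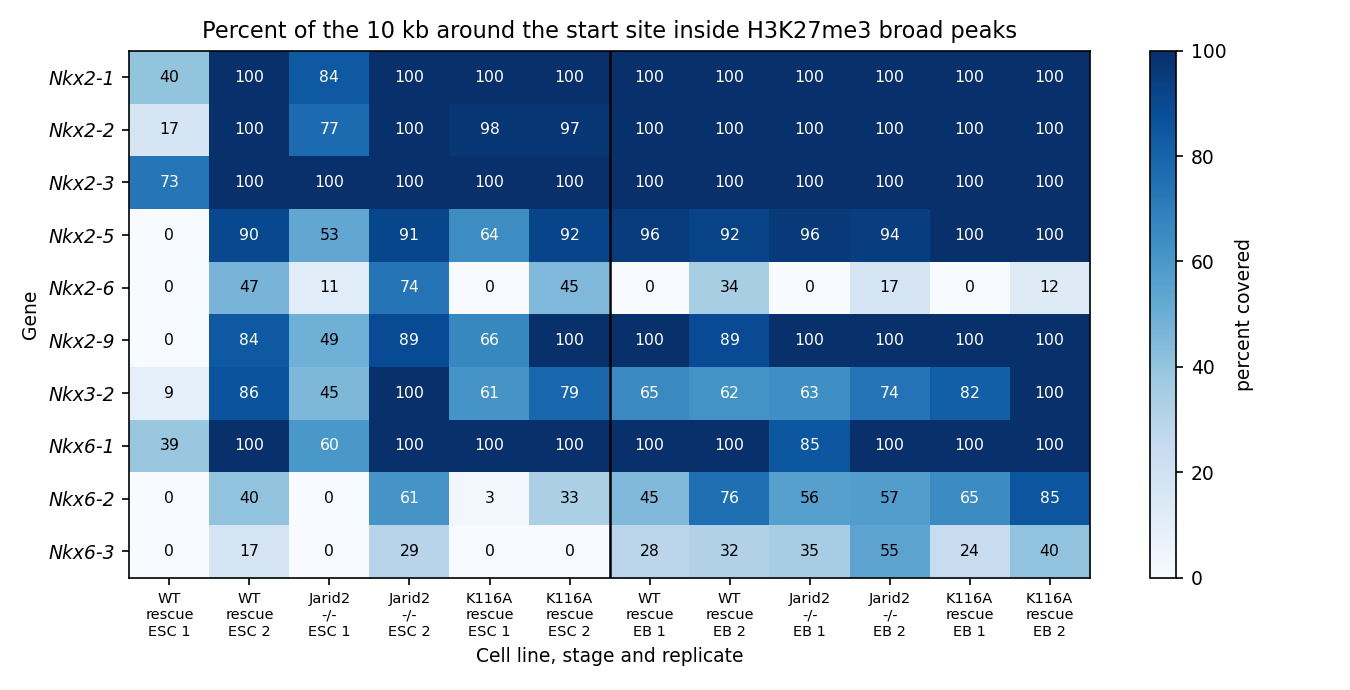
Percent of the 10 kb around the start site inside H3K27me3 broad peaks, for each Nkx gene (rows) in each of the 12 libraries (columns, ESC left and EB right of the line). Nkx2-1, Nkx2-2 and Nkx2-3 stand at 100% in every EB library, whereas Nkx2-6 does not exceed 34.3% in EB.

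In EB, 9 Nkx genes had a broad peak in all 6 libraries, and Nkx2-6 had one in 3. The median coverage over the 6 EB libraries was 100% at Nkx2-1, Nkx2-2, Nkx2-3, Nkx2-9 and Nkx6-1, 95.7% at Nkx2-5, 69.8% at Nkx3-2, 60.8% at Nkx6-2, 33.4% at Nkx6-3 and 6.20% at Nkx2-6. After 8 days of differentiation 9 genes thus carried the mark in each library, and 9 of the 10 had a higher mean level in EB than in ESC. The lowest, median and highest scores of the genes at each stage follow, from the heart and foregut genes to the neural ones. The scores of Nkx6-3 and Nkx2-6 are given for single libraries.

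At Nkx2-1, the thyroid and lung factor, the ESC scores had a lowest, median and highest value of 58.6, 89.7 and 129.5, and the EB scores of 126.0, 167.2 and 263.7. The lowest EB library thus lay just under the highest ESC library. At Nkx2-5, the cardiac factor, ESC ran from 0 over 77.1 to 108.7 and EB from 77.0 over 111.1 to 287.4, and the groups overlapped. The ESC value of 0 belonged to WT rescue replicate 1, and the 2 highest EB values, 196.0 and 287.4, to the K116A rescue. At Nkx2-3, the spleen and gut factor, ESC ran from 66.7 over 99.0 to 158.2 and EB from 108.9 over 171.7 to 339.2. The 2 highest of these, 225.7 and 339.2, were again the K116A rescue EB, and 339.2 was the highest score of any Nkx gene in any library. At Nkx3-2, which acts in the axial skeleton, ESC ran from 58.0 over 76.6 to 97.5 and EB from 88.2 over 133.0 to 162.7, with overlap between 88.2 and 97.5.

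Among the neural tube genes, Nkx2-2 had ESC scores from 58.1 over 88.2 to 148.0 and EB scores from 92.1 over 129.1 to 213.6. Nkx6-1 had ESC scores from 57.0 over 85.6 to 139.1 and EB scores from 88.2 over 139.2 to 193.1. Both genes overlapped between stages over much of their range. Nkx2-9, which lies 74.48 kb from Nkx2-1 on chromosome 12, had ESC scores from 0 over 63.8 to 79.0 and EB scores from 72.8 over 99.1 to 219.4. No broad peak of any library reached both Nkx2-1 and Nkx2-9. Nkx6-2 had ESC scores from 0 over 47.7 to 53.9 and EB scores from 69.9 over 107.9 to 139.3, and no EB library was as low as any ESC library.

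Nkx6-3 was listed without a broad peak in 4 of 6 ESC libraries. The WT rescue replicate 2 had 62.0 and Jarid2 -/- replicate 2 had 63.0. All 6 EB libraries had one, with 83.4 and 75.5 in the WT rescue, 138.7 and 219.5 in Jarid2 -/-, and 93.7 and 151.5 in the K116A rescue. Every EB library was above every ESC library, which held for Nkx6-2 and Nkx6-3, 2 of 10 Nkx genes, against 3.27% of the genes with a broad peak in at least 1 library of each stage. Nkx2-6 went the other way. Its ESC scores were 0 and 56.2 in the WT rescue, 44.8 and 56.7 in Jarid2 -/-, and 0 and 52.7 in the K116A rescue. Its EB scores were 0 and 38.8, 0 and 37.0, and 0 and 45.1 in the same order. In each line the second EB replicate was below the second ESC replicate, and each of the 5 libraries without a peak was a first replicate.

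**Figure D3:**
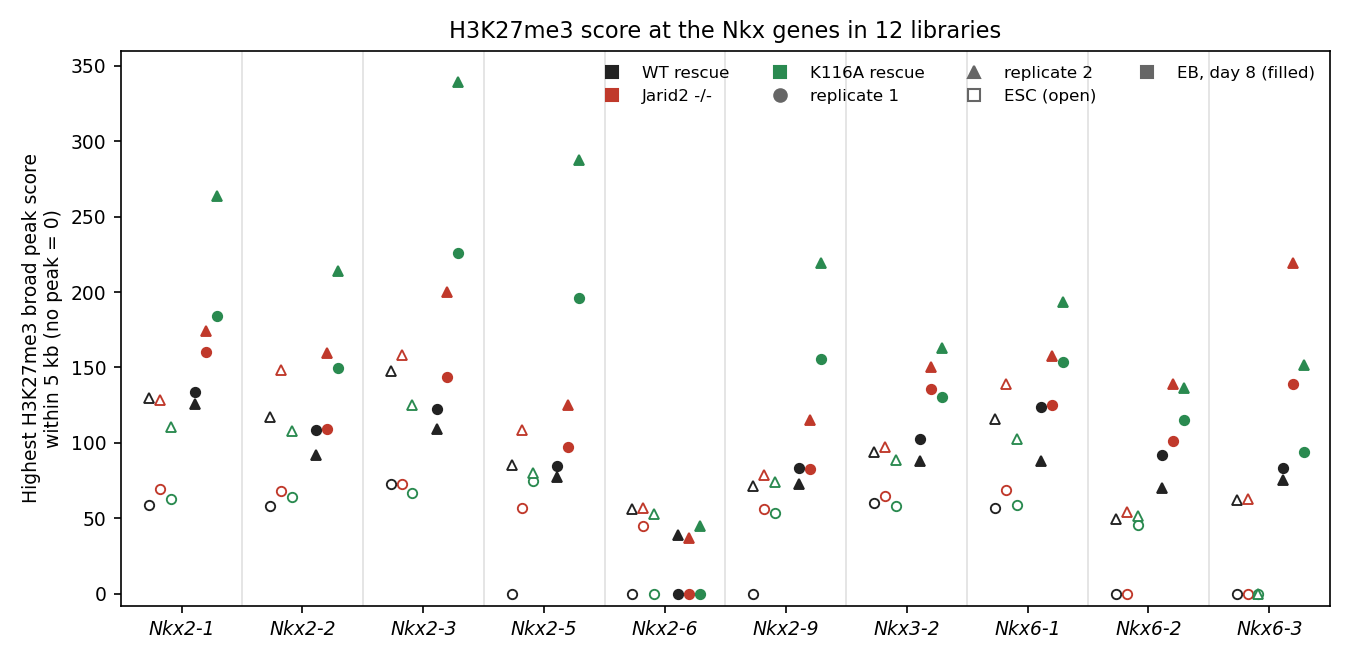
Highest H3K27me3 broad peak score within 5 kb of each Nkx gene, 0 for no peak, in ESC (open symbols) and EB (filled symbols) of the WT rescue (black), Jarid2 -/- (red) and the K116A rescue (green), with circles for replicate 1 and triangles for replicate 2. The K116A rescue EB give the highest values at Nkx2-3 (225.7 and 339.2), and Nkx2-6 stays under 57 in all libraries.

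The difference between stages was tested with limma on log2(score + 1) over the 8030 genes with a broad peak in at least 2 libraries (36.2% of all genes, all 10 Nkx genes included), as the mean of the 3 lines. Of the 10 Nkx genes only Nkx6-3 passed an adjusted p of 0.05, against 16.9% of all genes tested. Its mean level was 2.00 in ESC and 6.90 in EB on the log2(score + 1) scale, a difference of 4.90 (SE 1.33, limma adjusted p = 0.0466). This call was lost without any 1 of 10 of the 12 libraries, the exceptions being WT rescue ESC replicate 2 and Jarid2 -/- ESC replicate 2, so it stood at the border of the threshold. Its difference stayed between 3.90 and 5.90 in these fits. The size of the difference at Nkx6-3 depended on the coding of no peak as 0. It was 1.403 with no peak set to the library's lowest score (limma adjusted p = 0.0014), and 7.11 with a pseudocount of 0.1. The next largest difference, 2.96 (SE 1.27) at Nkx6-2, did not pass (limma adjusted p = 0.157). Nkx2-9 had 1.77 (SE 0.98), Nkx2-5 1.74 (SE 1.02), Nkx2-1 0.93 (SE 0.31), Nkx2-3 0.80 (SE 0.33), Nkx3-2 0.73 (SE 0.23), Nkx6-1 0.67 (SE 0.31) and Nkx2-2 0.58 (SE 0.32), none past the threshold. At Nkx2-6 the difference was −1.14 (SE 1.92). These sizes also depended on the coding at genes that lacked a peak in some libraries. With no peak set to the library's lowest score, the difference was 1.18 at Nkx6-2, 0.84 at Nkx2-5, 0.86 at Nkx2-9 and −0.41 at Nkx2-6.

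The median difference over the 10 Nkx genes was 0.86 (1.23 between the first and 0.51 between the second replicates, each with 9 genes higher in EB), against 1.44 over all genes tested. Genes without any ESC peak made up 1092 of the 1280 genes called higher in EB. Among the 5745 tested genes with a peak in at least 1 ESC and 1 EB library, as all 10 Nkx genes had, 3.27% were called higher. The median difference over these 5745 genes was 1.03, still above the 0.86 of the Nkx genes. The libraries also differed in scale, and the median over the 768 genes with a peak in all 12 libraries was itself 0.50 higher in EB. When the libraries were centred on it, the same 9 Nkx genes remained higher in EB, with a median difference of 0.37 over the family, and Nkx2-1 (0.43) passed beside Nkx6-3 (4.73). An exact two-sided permutation test over the libraries, 6 against 6, was run for each of the 10 genes, and its p-values are not adjusted. The exact p was 0.00216, the smallest that 924 splits allow, for Nkx6-2 and Nkx6-3, 0.00649 for Nkx2-1 and Nkx2-9, 0.0108 for Nkx3-2, and 0.039 to 0.0455 for Nkx6-1, Nkx2-5 and Nkx2-3. It was 0.0801 for Nkx2-2 and 0.286 for Nkx2-6. These tests used uncentred levels, so they include the shift between libraries, and they were not run over all genes. On the centred scale, without a permutation test, the difference was 0.18 at Nkx6-1, 0.23 at Nkx3-2 and 0.30 at Nkx2-3. It ran from 1.39 to 4.73 at Nkx2-5, Nkx2-9, Nkx6-2 and Nkx6-3. Each of these genes lacked a peak in at least 1 ESC library, and centring left such libraries at 0.

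**Figure D4:**
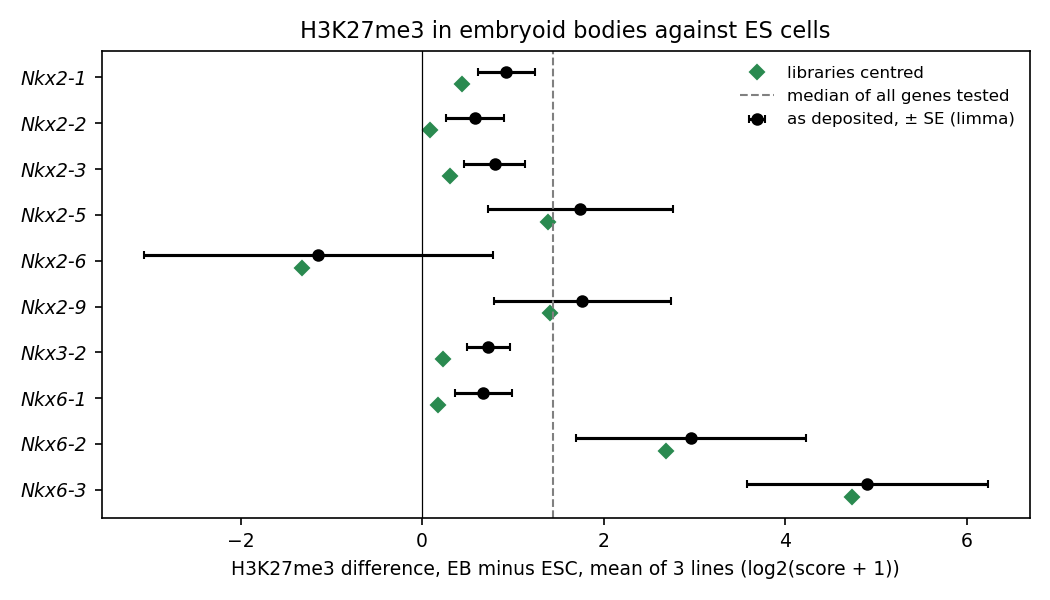
Difference of H3K27me3 between EB and ESC for each Nkx gene, as the mean of 3 lines on the log2(score + 1) scale, with the standard error of limma (black) and after centring the libraries (green). Points right of 0 are higher in EB, as are 9 of the 10 genes on both scales, and the dashed line is the median of all genes tested, 1.44.

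Within single lines no Nkx gene passed the threshold for EB against ESC. In the WT rescue the median difference over the family was 0.46, but it was 1.14 between the first replicates and −0.12 between the second, where only 3 genes were higher in EB. Over all genes 2.23% were called. No Nkx gene had an unadjusted p under 0.05, against 6.72% of all genes. In Jarid2 -/- the median difference was 0.60, with 18.0% of all genes called. Again no Nkx gene had an unadjusted p under 0.05, against 23.3% of all genes. In the K116A rescue the median difference was 1.38, with 4.03% of all genes called. Here 4 Nkx genes (Nkx2-1, Nkx2-3, Nkx3-2 and Nkx6-3) had an unadjusted p under 0.05, against 15.7% of all genes. The test of whether the change from ESC to EB differed between lines was passed by no Nkx gene. This held for Jarid2 -/- against the WT rescue (9.29% of all genes called) and for the K116A rescue against the WT rescue (2.84%). No Nkx gene had an unadjusted p under 0.05 in either, against 12.95% and 5.59% of all genes. The shares called over all genes depended on the coding of no peak as 0. With no peak set to the library's lowest score, both tests of the change called 0 genes, in place of 746 and 228. For EB against ESC that setting called 0 in the WT rescue (in place of 179), 881 in Jarid2 -/- (1444) and 395 in the K116A rescue (324).

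The lines were then compared at the same stage to ask whether the mark at the Nkx genes depended on Jarid2 or on its lysine K116. Both comparisons use the same WT rescue libraries. In ESC no Nkx gene passed for Jarid2 -/- against the WT rescue (median difference 0.19, 0.0996% of all genes called) or for the K116A rescue against the WT rescue (median −0.06, 0.174% called). None had an unadjusted p under 0.05, against 0.399% and 0.984% of all genes. Broad peaks remained in Jarid2 -/- ESC at all 10 Nkx genes in 1 replicate and at 8 in the other, where Nkx6-2 and Nkx6-3 had none. No Nkx gene had both libraries of 1 of these lines above or below both WT rescue libraries in ESC, where 3.45% of all genes tested were above and 0.137% below for Jarid2 -/-, and 4.77% above and 0.237% below for the K116A rescue.

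In EB the scores were lowest in the WT rescue. The study lists fewer reads for both WT rescue EB libraries than for any other EB library. Among the ESC libraries it lists the most reads for WT rescue replicate 1, which had the fewest broad peaks. It lists the fewest for Jarid2 -/- replicate 2, which had the most broad peaks in ESC. The part of depth in these orders was not tested. The median over the 10 Nkx genes was 97.2 and 82.6 in the 2 WT rescue libraries, 116.8 and 153.8 in Jarid2 -/-, and 151.4 and 203.4 in the K116A rescue. Both Jarid2 -/- libraries were above both WT rescue libraries at 8 Nkx genes, against 55.6% of all genes tested. Both K116A rescue libraries were above both WT rescue libraries at 9, all but Nkx2-6, against 38.7%. The shares over all genes include genes without a broad peak in these EB libraries, which cannot count as above. The 9 Nkx genes other than Nkx2-6 had a broad peak in every EB library. The limma test, however, called none in either comparison, while 9.84% and 2.74% of all genes (790 and 220) were called. With no peak set to the library's lowest score these 2 counts were 320 and 54. No Nkx gene had an unadjusted p under 0.05 in either comparison of the main fit, against 18.8% and 9.29% of all genes. The largest differences of the K116A rescue from the WT rescue were 1.54 (SE 1.77) at Nkx2-5, 1.25 (SE 0.58) at Nkx2-3 and 1.24 (SE 1.70) at Nkx2-9. The median of the 768 genes with a peak in all libraries was higher by 0.73 in the K116A rescue and by 0.51 in Jarid2 -/-. On the centred scale only 5 Nkx genes were higher in the K116A rescue and 4 in Jarid2 -/-, with family medians of 0.01 and −0.08, so the direction at the family as a whole depended on the scale of the libraries. Nkx2-5 kept the largest centred difference, 0.82.

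The peaks of the Nkx genes were next set beside those of related genes. Nkx1-1, Nkx1-2 and Nkx2-4 also had scores of 3100 for both antibodies. None of these 3 genes passed the test of EB against ESC, with differences of 0.77, 1.41 and 0.74 on the log2(score + 1) scale. All 6 Dlx genes and 5 of 6 Irx genes, homeobox families of forebrain, limb and neural tissue, had 3100 for Jarid2. Irx6 had the lowest score, 1889.31. Of each family 5 genes had a broad peak in all 12 libraries, and none was called between stages.

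Genes that act together with the Nkx factors were also mostly bound. A Jarid2 peak was found at 10 of 10 genes of the ventral neural tube list, from Dbx1 (3100) to Dbx2 (479.81), and at 8 of 8 heart genes, from Isl1 (3151.55) to Mef2c (583.48). It was found at 7 of 8 pancreas genes, all but Pax4, at 5 of 6 genes of thyroid, lung and forebrain, all but Sox2, and at 6 of 6 genes of axial skeleton and spleen, each at 3100. For H3K27me3 the median difference between EB and ESC was 0.00 over the heart list, with −2.08 at Tbx5, −1.01 at Gata4 and 0.78 at Hand2, and none passed. The neural tube, pancreas and axial skeleton lists had medians of 0.96, 0.82 and 0.64, with no gene called either. Of the thyroid, lung and forebrain list 1 gene was called, Sox2, a gene of ESC and neural progenitors (difference 1.80 on the log2(score + 1) scale, limma adjusted p = 0.000132). Sox2 had a broad peak only in the 2 Jarid2 -/- EB libraries, and all other libraries entered the test as 0. The difference is a mean over the lines, so this call came from the Jarid2 -/- line alone.

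The genes most like the Nkx family in H3K27me3 were found by the distance of their 12 log2(score + 1) values from the median of the 10 Nkx genes. Outside the lists above they included Fam43b and AB041806 (2.64 each), Vgll2 (2.72) and Dio3 (2.73). Within the family itself the distance was 3.03 to 3.66 for 7 genes, 6.83 for Nkx6-2, 11.0 for Nkx6-3 and 14.1 for Nkx2-6, so these last 3 departed most from the common pattern.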

How the data were processed

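Scores were analysed from 14 peak lists of 16 samples, the 2 inputs having none. Per the labels and the study's methods, the authors mapped single reads of 100 bp to mm9 with Bowtie2 2.1.0, called peaks of each sample with MACS 1.4.2 (Jarid2, Jarid2-K116me2; FDR 0.15%) or as broad peaks with MACS2 2.0.10 (H3K27me3; FDR 5%) against input, and deposited each peak with a score, unnormalized for depth. No file header states the scale of the broad peak score. Whether it is a significance or an amount is therefore not known, and it can rise with depth, which the files do not give. Read numbers listed by the study did not enter the levels or tests.

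Peaks were assigned to GENCODE genes of NCBIM37 (= mm9) within 5 kb, with an overlap of 1 bp. The test planned on fold enrichment was run on log2(score + 1), since the files hold a score, with limma 3.58.1 (R 4.3.3), one mean per group of 2 replicates, all 12 libraries in one fit, 10 comparisons and Benjamini-Hochberg adjustment over the 8030 genes with a peak in at least 2 libraries. Genes without a peak were set to 0. The replicates are independent biological samples per the study's methods. Overlaps and summaries were computed in Python 3.11.15 (pandas 2.3.3, numpy 2.4.6), permutation tests with scipy 1.17.1 and plots with matplotlib 3.10.9. Functions were tested on simulated data. The members and gene lists were chosen with earlier results of these data known. Genes named beyond the members were other Nkx genes, the highest and lowest scores of each partner list, and genes among the 5 nearest (2 genes chosen by these rules are not reported here), besides a few named for their values in H3K27me3, chosen after these were seen. The replicate numbers were not taken to pair the samples, since the correlation over genes of same-numbered deviations ran from −0.10 to 0.37 and was above 0.1 in only 4 of 15 pairs of groups. Such a correlation cannot show a shift shared by all genes. In every group replicate 2 had more broad peaks than replicate 1, as with 8579 against 1478 in WT rescue ESC and 8446 against 6852 in WT rescue EB. Whether the replicate numbers mark batches was not tested. The study regarded the second replicates as the better ones. Alternatives changed the distance, the score minimum, the overlap, the pseudocount, the scale, the filter and the replicates.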

Additional observations from a re-analysis of the deposited data

How the results depend on the processing

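The count of Nkx genes called between EB and ESC, 1 for the mean of the 3 lines, was sensitive to the processing. It was 0 with a pseudocount of 0.1, with a peak in at least 1 library as the filter and with the gene body only, 2 with centred libraries, 3 with the replicate number as a block and, in an alternative chosen after seeing the data, 7 with genes without a peak set to the lowest score of the library. That last setting also gave 2 in Jarid2 -/- and 4 in the K116A rescue. Leaving out 1 library at a time gave 0 to 6, the 6 without WT rescue ESC replicate 2. Without that library the counts were 2 in place of 0 for EB against ESC in the WT rescue, for both ESC comparisons with the WT rescue and for both tests of a difference in the change (range 0 to 2). The lone WT rescue ESC library was then assumed to vary like the other groups, and it is the one with 1478 broad peaks, in which Nkx2-5 and Nkx2-9 had none. The cause was not tested. The replicate block changed no other count, and the numbers were not taken to pair the samples. With replicates 2 only, the median difference of the family in the K116A rescue was 1.32 in place of 1.38. In the WT rescue it was −0.12 in place of 0.46, a change of sign, with only 3 genes higher in EB. No Nkx gene changed the direction of its mean difference between EB and ESC in any refit. The counts of Nkx genes with Jarid2 peaks stayed within 1.5 times under the other distances, score minimum and overlap. The planned minimum on the q-value could not be run, since the files hold no q-value. A minimum score of 50, chosen after seeing the data, took its place and again gave 1 call, Nkx6-2 in place of Nkx6-3. Depth, which the files do not give, and 2 replicates per group limit each of these results.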
